A study of Homo sapiens with 6 samples.

Results

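Transcripts of 10 genes of the actin cytoskeleton were followed through 6 RNA libraries of SK-Hep1, a cell line labelled hepatocellular carcinoma. The genes were the cytoplasmic actins ACTB and ACTG1, the smooth muscle actin ACTA2, the tropomyosins TPM1 and TPM4, the transgelins TAGLN and TAGLN2, the calponin CNN2, and the turnover factors CAP1 and CFL1. All rows carrying one of these gene names were kept: 75 transcript rows of 28768, for 10 genes of 11593. The genes were selected on measured values of these same libraries, their FPKM and its difference between probe sets among them, so all differences between probe sets below are descriptions, with no test read from them. The libraries are labelled ChIRP, in which biotinylated antisense DNA probes pull down a chosen RNA together with what is crosslinked to it. In 3 libraries the probe set covered SNHG10, a long noncoding RNA (probes from RiboBio), and in 3 control libraries it was directed at LacZ, a gene of bacteria (probes from Millipore). No drug, genotype or time point separated the groups, and the labels do not say whether replicates were separate cultures. The question of the series was which messenger RNAs come down with SNHG10. All levels are FPKM, an abundance scaled by transcript length and by library total that can be compared between genes, and values are given in the order of replicates 1, 2 and 3.

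Actin monomers assemble into filaments that give a cell its shape, its adhesion and its contraction, and cytoplasmic beta- and gamma-actin (ACTB, ACTG1) are present in nearly every cell. Tropomyosins lie along the filament and control which proteins bind it, transgelins and calponins bind and stabilise filaments, cofilin (CFL1) severs them, and CAP1 helps cofilin and recharges the released monomers. Many of these genes are targets of serum response factor, which binds the CArG box and whose coactivator is held back by free actin monomers.

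FPKM totals ran from 268794 to 277118 over the 6 libraries, and 30.5% to 33.8% of the rows were listed at 0 in a library. The depth in reads is unknown, so no counting interval is given, and values of 0 may be estimates that failed. Of 12 hepatocyte markers only CPS1 and SERPINA1 had a row, with no value above 1.53 FPKM, and the other 10, ALB and HNF4A among them, had none and were not analysed here. Rows were present for 3 of 8 endothelial markers (ENG, EGFL7 and ROBO4), for the keratins KRT8, KRT18 and KRT19 and for all 5 mesenchymal markers, with VIM between 833 and 1522 FPKM. Of 17 cell type markers with a row, smooth muscle and leukocyte ones included, 3 did not overlap between the probe sets: CPS1, EGFL7 and KRT8. The same held for 11.4% of all genes tested, and nothing is read from this count. CPS1 read 0.626, 0.505 and 0.796 FPKM in the SNHG10 libraries against 0.883, 1.25 and 1.53. EGFL7, a secreted endothelial protein, read 8.30, 7.45 and 8.18 FPKM in the SNHG10 libraries against 26.0, 18.8 and 14.0, and KRT8 ranged from 465 to 549 against 589 to 633. Summed levels overlapped for the 3 endothelial markers (42.4 to 51.2 FPKM against 46.4 to 61.8) and for the 3 keratins (1818 to 2070 against 2007 to 2116). The endothelial markers PECAM1, CDH5, KDR, TEK and VWF had no row, and the part of any of these cell type markers in the values below was not tested. In bulk RNA of this kind, fewer cells of a type and less RNA per cell cannot be told apart.

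The CArG box, a pair of C, 6 bases that are each A or T, and a pair of G, was searched on both strands in RefSeq promoters (GRCh38.p14, from 250 bases before to 50 bases after a gene's start), because it is the textbook feature that many of these genes share. It was present in 3 of 15 promoters of the 8 genes that matched, against 454 of 35116 promoters of all genes (1.29%). The 3 genes were ACTG1, CNN2 and TPM4, and no promoter was matched for ACTB or TAGLN. Counted per gene, a box was present in 3 of 8 matched members and in 438 of 27305 genes in all (1.60%). Of 72 matched other genes of the actin pathway, 7 held a box (ACTA1, ACTC1, ACTG2, ACTN1, FLNA, ROCK2 and SRF). A match is a description of letters, and its absence says only that they are not in this window. The boxes are shown in capitals within 60 bases, 5′ to 3′ on the gene's strand, and they begin 94, 89 and 173 bases before the start of the gene.
ACTG1, chr17:81512859-81512918, minus strand: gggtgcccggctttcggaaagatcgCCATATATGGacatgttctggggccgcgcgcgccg
CNN2, chr19:1026494-1026553, plus strand: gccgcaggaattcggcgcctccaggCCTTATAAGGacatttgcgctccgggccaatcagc
TPM4, chr19:16067340-16067399, plus strand: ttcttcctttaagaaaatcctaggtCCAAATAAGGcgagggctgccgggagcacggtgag

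The 10 genes spanned a wide range of levels. ACTG1 and ACTB had means over the 6 libraries of 806 and 750 FPKM and ranked 30 and 35 of all genes, followed by CFL1 with 318, TPM1 with 195, CAP1 with 162 and TAGLN2 with 122. CNN2 and TPM4 averaged 66.2 and 64.5 FPKM, ACTA2 23.8 and TAGLN 6.26. Neighbours in this order overlapped in their libraries for ACTG1 and ACTB, for TPM1 and CAP1, for CNN2 and TPM4 and for ACTA2 and TAGLN, while the other neighbours did not. Together the 10 genes made up 0.789%, 1.17% and 0.919% of all FPKM of an SNHG10 library, against 0.895%, 0.916% and 0.854% for LacZ. SNHG10 replicate 2 was the highest of all 6 and SNHG10 replicate 1 the lowest, so the probe sets overlapped. The difference of 0.0698 percentage points became -0.0346 without SNHG10 replicate 2. Without the 3 actins, the other 7 genes held 0.319% to 0.356% and 0.316% to 0.363%.

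**Figure D1:**
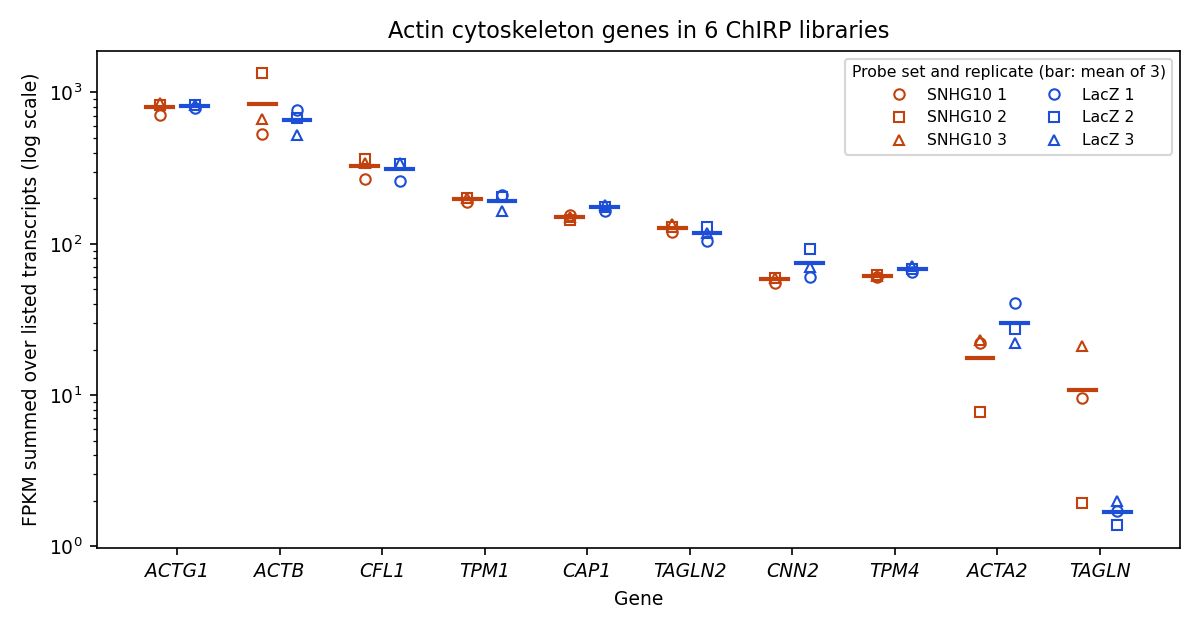
Summed FPKM per library (log axis) of the 10 genes, ordered by mean, with SNHG10-probe libraries in orange, LacZ-probe libraries in blue, a symbol for each replicate number and a bar at the mean of 3. ACTB stands at 1338 FPKM in SNHG10 replicate 2 against 525 to 760 in the other 5 libraries, and TAGLN spans 1.38 to 21.0 FPKM.

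ACTB (ENSG00000075624, chr7:5566782-5603415, minus strand of hg19), which encodes beta-actin, was at 528, 1338 and 665 FPKM in the SNHG10 libraries against 760, 680 and 525 in the LacZ libraries. Only SNHG10 replicate 2 stood apart, and the other 5 libraries were mixed. The means were 844 ± 434 and 655 ± 120 FPKM (SD, n = 3 each), and the difference on the log2(FPKM + 1) scale, SNHG10 minus LacZ, was 0.26 ± 0.32 (SE). Each SE of a log2 difference, here and below, is drawn toward the spread of genes of like level. For ACTB, ACTA2, TAGLN, CNN2 and CFL1 it is narrower than the gene's own spread would give, and for the other members wider. The ACTB difference turned to -0.13 without SNHG10 replicate 2 and reached 0.54 without SNHG10 replicate 1. The highest library was 1.76 times the second. Among 364 genes that averaged 100 FPKM or more, 2 (0.549%) had a gap as wide, ACTB itself and RPS19, a ribosomal protein gene, in LacZ replicate 1, while the median ratio was 1.05.

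The excess of ACTB in that library was spread over its transcripts unequally. ACTB-205 read 431, 889 and 574 FPKM against 641, 565 and 425, and ACTB-201, a row of much shorter genomic span (3559 bases against 35193), read 75.2, 432 and 74.7 against 99.4, 94.9 and 78.9. In SNHG10 replicate 2, ACTB-201 was 5.10 times the mean of the other 5 libraries and ACTB-205 1.69 times. These rows made up 49.1% and 51.3% of the excess over the other libraries' mean. ACTB-203 did not share in it, reading 21.8, 9.03 and 12.5 against 12.1, 15.5 and 16.3 FPKM, with its lowest value in the library where the gene was highest. ACTB-202 ranged from 0.441 to 8.06 FPKM.

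ACTG1 (ENSG00000184009, chr17:79476997-79481666, minus strand), which encodes gamma-actin, read 713, 832 and 850 FPKM against 790, 824 and 824. The probe sets overlapped, with means of 798 ± 74.8 and 813 ± 19.6 FPKM and a log2 difference of -0.03 ± 0.09. SNHG10 replicate 2, so far apart in ACTB, was within the range of the other libraries for this second cytoplasmic actin. The ratio of ACTB to ACTG1 was 1.61 in that library and 0.637 to 0.962 in the others.

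The even sum of ACTG1 came from uneven rows. ACTG1-202 read 316, 491 and 327 FPKM against 294, 526 and 423, ACTG1-201 read 196, 74.9 and 148 against 155, 94.4 and 124, and ACTG1-209 read 0, 0.62 and 93.3 against 160, 0 and 89.5. The libraries with the most ACTG1-202, replicate 2 of each probe set, had the least ACTG1-201 and, like SNHG10 replicate 1, next to no ACTG1-209. ACTG1-216 was steadier, at 146, 135 and 184 against 128, 145 and 129 FPKM. Of the other 5 rows, ACTG1-203 ranged from 27.6 to 66.0, ACTG1-210 from 5.47 to 67.2 and ACTG1-206 from 2.40 to 21.0 FPKM, while ACTG1-204 and ACTG1-208 stayed at or below 7.59.

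ACTA2 (ENSG00000107796, chr10:90694831-90751096, minus strand), the actin of vascular smooth muscle and of activated myofibroblasts, read 22.1, 7.70 and 23.0 FPKM against 40.8, 27.4 and 22.0. The lowest library was SNHG10 replicate 2, the one highest in ACTB, and LacZ replicate 3 was just below 2 of the SNHG10 libraries. Means were 17.6 ± 8.58 and 30.1 ± 9.64 FPKM, and the log2 difference was -0.83 ± 0.42. Without SNHG10 replicate 2 it was -0.36, and without SNHG10 replicate 3 it was -1.09. Row ACTA2-202 read 12.7, 0.692 and 5.75 against 18.5, 10.05 and 15.04 FPKM. ACTA2-201, whose 5′ end lies 38566 bases downstream of that of ACTA2-202, read 5.63, 3.69 and 11.1 against 14.9, 10.4 and 7.0 FPKM, and ACTA2-203 ranged from 0 to 7.41.

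The smooth muscle markers MYLK and SMTN were also lower on average with SNHG10 probes, but their order over the libraries differed from that of ACTA2. TAGLN, likewise typical of smooth muscle, went the other way, with a log2 difference of 1.71. Those of MYLK and SMTN were -0.75 and -0.35. Rows were present for 2 of 7 smooth muscle markers, MYLK and SMTN, and their summed level ran from 46.4 to 59.7 FPKM in the SNHG10 libraries and between 63.5 and 80.5 in the LacZ libraries. MYLK, the myosin light chain kinase, read 18.8, 22.8 and 47.2 FPKM against 47.6, 45.6 and 46.4, and SMTN, smoothelin, read 27.6, 25.1 and 12.5 against 32.9, 32.8 and 17.1. The summed levels did not overlap, but no share over all genes was taken for sums, so nothing is read from this. Both genes alone overlapped: MYLK was low in SNHG10 replicates 1 and 2 and SMTN in replicate 3 of both probe sets. The defining markers MYH11, DES, CNN1 and ACTG2 had no row and were not analysed here. The part of these genes in the ACTA2 values was not tested. ACTA2 also shares 683 bases with FAS and 40080 with STAMBPL1 on the other strand, and whether counting used strand is not given in the sources used here. FAS, a death receptor, read 2.79, 0.670 and 1.11 FPKM but 0 in every LacZ library, a direction opposite to ACTA2.

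TPM1 (ENSG00000140416, chr15:63334831-63364114, plus strand), a tropomyosin gene known for extensive alternative splicing, read 189, 200 and 202 FPKM against 211, 205 and 164. The sums overlapped, with means of 197 ± 6.72 and 193 ± 25.6 FPKM and a log2 difference of 0.04 ± 0.12. Its leading row did not overlap: TPM1-220 read 118, 142 and 118 FPKM against 112, 88.7 and 66.0. As a share of the gene, TPM1-220 held 62.5%, 71.2% and 58.3% against 53.2%, 43.3% and 40.3%. Its mean share was 64.0% ± 6.59 in the SNHG10 libraries and 45.6% ± 6.74 in the LacZ libraries (SD, n = 3 each). TPM1 was the only one of 9 members, all but TAGLN, whose leading share did not overlap between the probe sets, against 10.1% of 3428 genes that had several rows and averaged at least 10 FPKM. That member share, 1 of 9, is close to the background and is no result about these genes.

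Other TPM1 rows filled the difference in different ways in each library. TPM1-206, which starts 73 bases before TPM1-220 and ends 667 bases beyond it, read 14.1, 6.19 and 18.9 FPKM against 8.91, 85.1 and 30.8. Its 85.1 in LacZ replicate 2 was 41.6% of the gene there and no more than 18.8% in any other library. TPM1-233, a short row that ends 23496 bases before TPM1-220, read 15.4, 11.2 and 9.19 against 22.4, 21.1 and 21.2 FPKM, without overlap and with little spread among the LacZ libraries. The remaining 12 rows were at most 24.4 FPKM in any library, the highest being TPM1-208 in LacZ replicate 1, and 10 of the 15 rows were listed at 0 in at least 1 library.

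TPM4 (ENSG00000167460, chr19:16187116-16213815, plus strand), a cytoskeletal tropomyosin, was the steadiest of the 10 genes. It read 60.1, 61.8 and 61.2 FPKM against 65.2, 68.0 and 70.8, so the probe sets did not overlap. Means were 61.0 ± 0.863 and 68.0 ± 2.83 FPKM, a log2 difference of -0.15 ± 0.12, where the SE is drawn toward the spread of genes of like level and exceeds the gene's own. With median-ratio scaling the difference was -0.09. The pooled SD between libraries of one probe set was 0.0442 on the log2 scale, and only 0.257% of 3891 genes between 10 and 100 FPKM had a smaller one. Row TPM4-201 held most of the gene, at 53.9, 55.2 and 52.7 FPKM against 47.2, 61.9 and 67.5. TPM4-215 was highest, at 15.3 FPKM, in LacZ replicate 1, the library with the least TPM4-201, and TPM4-208 and TPM4-209 stayed at or below 3.59.

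TAGLN (ENSG00000149591, chr11:117070037-117075498, plus strand), known as SM22 and typical of smooth muscle and myofibroblasts, varied the most. It stood at 9.55, 1.93 and 21.0 FPKM in the SNHG10 libraries but at 1.72, 1.38 and 1.99 in the LacZ libraries. SNHG10 replicates 1 and 3 were high, while SNHG10 replicate 2 lay within the LacZ range, so the probe sets overlapped. The means were 10.8 ± 9.59 and 1.70 ± 0.307 FPKM, and the log2 difference was 1.71 ± 0.68. It was 1.05 without SNHG10 replicate 3, 2.50 without SNHG10 replicate 2 and 1.04 with a pseudocount of 5. The highest library was 15.2 times the lowest.

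The row that carried TAGLN changed between libraries, with TAGLN-202 leading in SNHG10 replicate 3 and in LacZ replicates 2 and 3 and other rows elsewhere. TAGLN-203 was listed at 9.55 FPKM in SNHG10 replicate 1 and at 0 in the other 5 libraries. TAGLN-202 read 0, 0 and 19.1 against 0, 1.38 and 1.78, TAGLN-207 read 1.94 in SNHG10 replicate 3 and 1.72 in LacZ replicate 1 and was otherwise at 0, and TAGLN-201 read 1.93 in SNHG10 replicate 2 and 0.207 in LacZ replicate 3 and was otherwise at 0. No TAGLN row was above 0 in all 6 libraries. The end of the gene shares 446 bases with PCSK7 on the other strand, which read 2.57, 5.16 and 4.06 FPKM against 5.69, 8.54 and 6.99. Over the 6 libraries the genes most like TAGLN, by Pearson's r of log2(FPKM + 1) among 10303 genes, were ELF1 (0.992), PUSL1 (0.990) and FAM21B (0.985), and 13 genes reached 0.95. With 6 points and 2 high libraries such values describe these libraries only.

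TAGLN2 (ENSG00000158710, chr1:159887897-159895522, minus strand), the transgelin of non-muscle cells, read 119, 129 and 135 FPKM against 105, 129 and 117. The probe sets overlapped, and the log2 difference was 0.13 ± 0.12, from 0.05 without LacZ replicate 1 to 0.20 without LacZ replicate 2. TAGLN2-203 read 118, 129 and 84.5 against 81.9, 84.5 and 74.0 FPKM, and its lowest SNHG10 value exceeded the highest LacZ value by less than 0.05 FPKM. TAGLN2-202 read 0, 0 and 27.7 against 22.5, 24.5 and 41.7 FPKM. Thus in SNHG10 replicates 1 and 2 TAGLN2-203 held at least 99.5% of the gene, while in the other 4 libraries it held 62.5% to 78.1%. TAGLN2-201 ranged from 0 to 23.0 FPKM and was at 0 in 3 libraries.

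CNN2 (ENSG00000064666, chr19:1026580-1039067, plus strand), the calponin of non-muscle cells, read 55.4, 59.1 and 59.7 FPKM against 59.96, 92.5 and 70.2. The probe sets touched without overlapping, at 59.70 FPKM in SNHG10 replicate 3 and 59.96 in LacZ replicate 1. Means were 58.1 ± 2.31 and 74.2 ± 16.6 FPKM, and the log2 difference was -0.33 ± 0.18. LacZ replicate 2 was the highest library, and without it the difference was -0.16.

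CNN2 exchanged its rows between libraries more than the other 8 members that could be compared. CNN2-207 stood at 43.4, 35.4 and 23.6 FPKM in the SNHG10 libraries and at 0 in every LacZ library. CNN2-201, which starts 37 bases earlier and has the same end, read 3.61, 15.8 and 11.5 against 32.9, 88.8 and 15.0. CNN2-205, also with the same end, read 0.961, 1.296 and 0 against 0, 0 and 32.9 FPKM, and CNN2-202 read 0.389, 0 and 11.5 against 13.5, 0 and 9.07. These 4 rows start within 48 bases of each other and share their end. Added together they read 48.3, 52.5 and 46.6 FPKM against 46.4, 88.8 and 56.9, and the probe sets overlapped. Without CNN2-207 the gene read 12.05, 23.7 and 36.1 against 59.96, 92.5 and 70.2 FPKM. The shorter CNN2-208 ranged from 0.816 to 9.55 FPKM and CNN2-204 from 0 to 5.25.

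CAP1 (ENSG00000131236, chr1:40505905-40538321, plus strand), the adenylate cyclase-associated protein that works on actin monomers, read 155, 143 and 149 FPKM against 166, 174 and 182. All 3 SNHG10 libraries were below all 3 LacZ libraries. Means were 149 ± 6.001 and 174 ± 7.90 FPKM, and the log2 difference was -0.22 ± 0.10. Its spread between libraries was small too, with a pooled SD of 0.0616 that 7.06% of 340 genes between 100 and 1000 FPKM undercut.

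Row CAP1-216, which ends 7713 bases before the leading row, was at 11.98, 14.03 and 10.28 FPKM in the SNHG10 libraries and at 0 in every LacZ library. The other CAP1 rows together read 143, 129 and 139 against 166, 174 and 182 FPKM. Leaving out a row at 0 in every LacZ library can only lower the SNHG10 values, so their lack of overlap follows from that of the sums. CAP1-206, the leading row, read 67.8, 46.6 and 52.0 against 59.1, 64.9 and 80.0. CAP1-202 ranged from 9.37 to 37.9 FPKM, CAP1-204 from 6.67 to 35.5 and CAP1-203 from 6.99 to 14.6, all with overlapping probe sets. The highest value of the other 10 rows was 15.9 FPKM, and 5 of them were listed at 0 in at least 1 library. CAP1 shares 1189 bases with PPT1 on the other strand, which read 23.7, 13.3 and 13.9 FPKM against 14.2, 18.7 and 20.0.

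**Figure D2:**
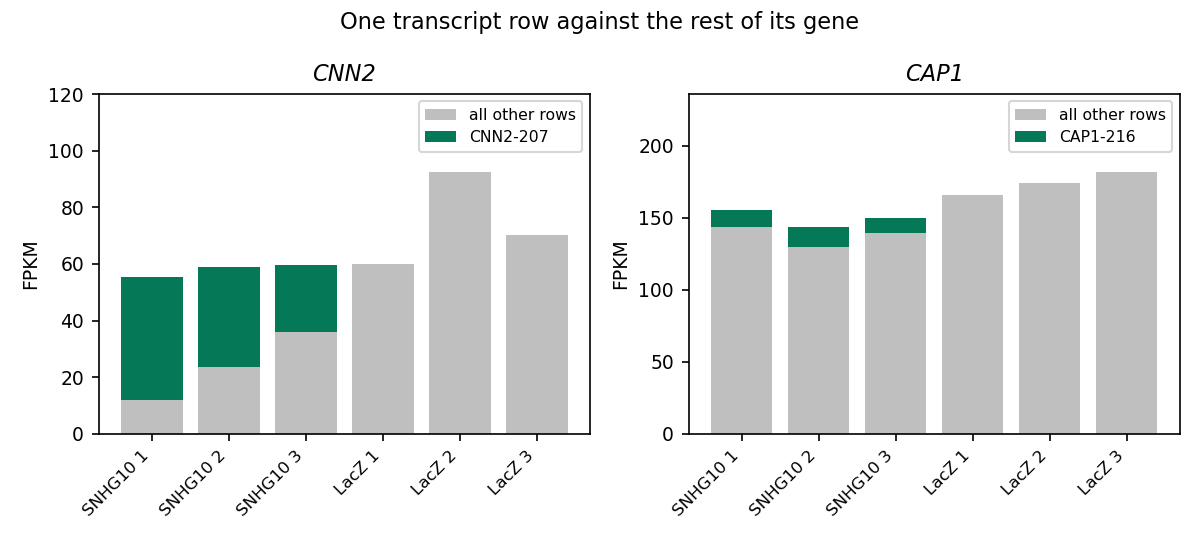
FPKM of CNN2 (left) and CAP1 (right) in each library, stacked as the transcript row named in the legend (green) on all other rows of the gene (grey). CNN2-207 and CAP1-216 are present in the 3 SNHG10 libraries and listed at 0 in the 3 LacZ libraries, and the stacked CNN2 bars of SNHG10 libraries stay at 55.4 to 59.7 FPKM.

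CFL1 (ENSG00000172757, chr11:65622146-65629497, minus strand), cofilin-1, read 269, 363 and 340 FPKM against 258, 336 and 340. Replicate 1 was the lowest of each probe set, and the probe sets overlapped throughout. Means were 324 ± 48.9 and 312 ± 46.2 FPKM, and the log2 difference was 0.06 ± 0.15, which turned to -0.07 without LacZ replicate 1.

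In LacZ replicate 1, where the CFL1 sum was lowest but close to SNHG10 replicate 1, the rows differed from those of all other libraries. CFL1-212 read 143, 203 and 201 FPKM against 0, 196 and 202, and CFL1-202 read 49.9, 99.9 and 72.3 against 0.137, 81.2 and 77.8. CFL1-201 read 55.4, 49.1 and 53.7 against 191, 48.0 and 41.3, and CFL1-211 read 1.23, 6.82 and 2.34 against 52.6, 1.24 and 5.63. A row that led the gene in 5 libraries was thus at 0 in the remaining one, where CFL1-201 held 74.0% of the gene. CFL1-209 ranged from 0.408 to 11.6 FPKM, CFL1-215 from 1.48 to 6.15 and CFL1-213 from 0 to 2.71. The gene shares 1622 bases with MUS81 on the other strand, which read 15.7, 17.5 and 15.8 FPKM against 13.3, 15.0 and 13.5, without overlap.

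Transcript exchange was seen in the members within probe sets as well as between them. For each pair of libraries the percentage of a gene's FPKM that sat in a different row was taken. Its mean was 44.4% for CNN2 within probe sets and 70.1% between them, the widest gap of the members. For TPM1 the values were 26.0% and 32.8% and for TAGLN2 20.4% and 24.95%. For ACTB (8.66% and 8.11%), ACTG1 (21.6% and 18.7%), TPM4 (11.9% and 10.7%) and CFL1 (33.5% and 31.4%) libraries of one probe set differed more than libraries of different probe sets. The median over 9 members was 22.7% within and 24.95% between, beside 29.9% and 30.7% over 3428 genes. The members had a median of 8 rows and those genes a median of 4, and among 316 genes with 8 or more rows the medians were 46.9% and 47.0%. Between exceeded within in 5 of 9 members and in 39.3% of those genes.

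**Figure D3:**
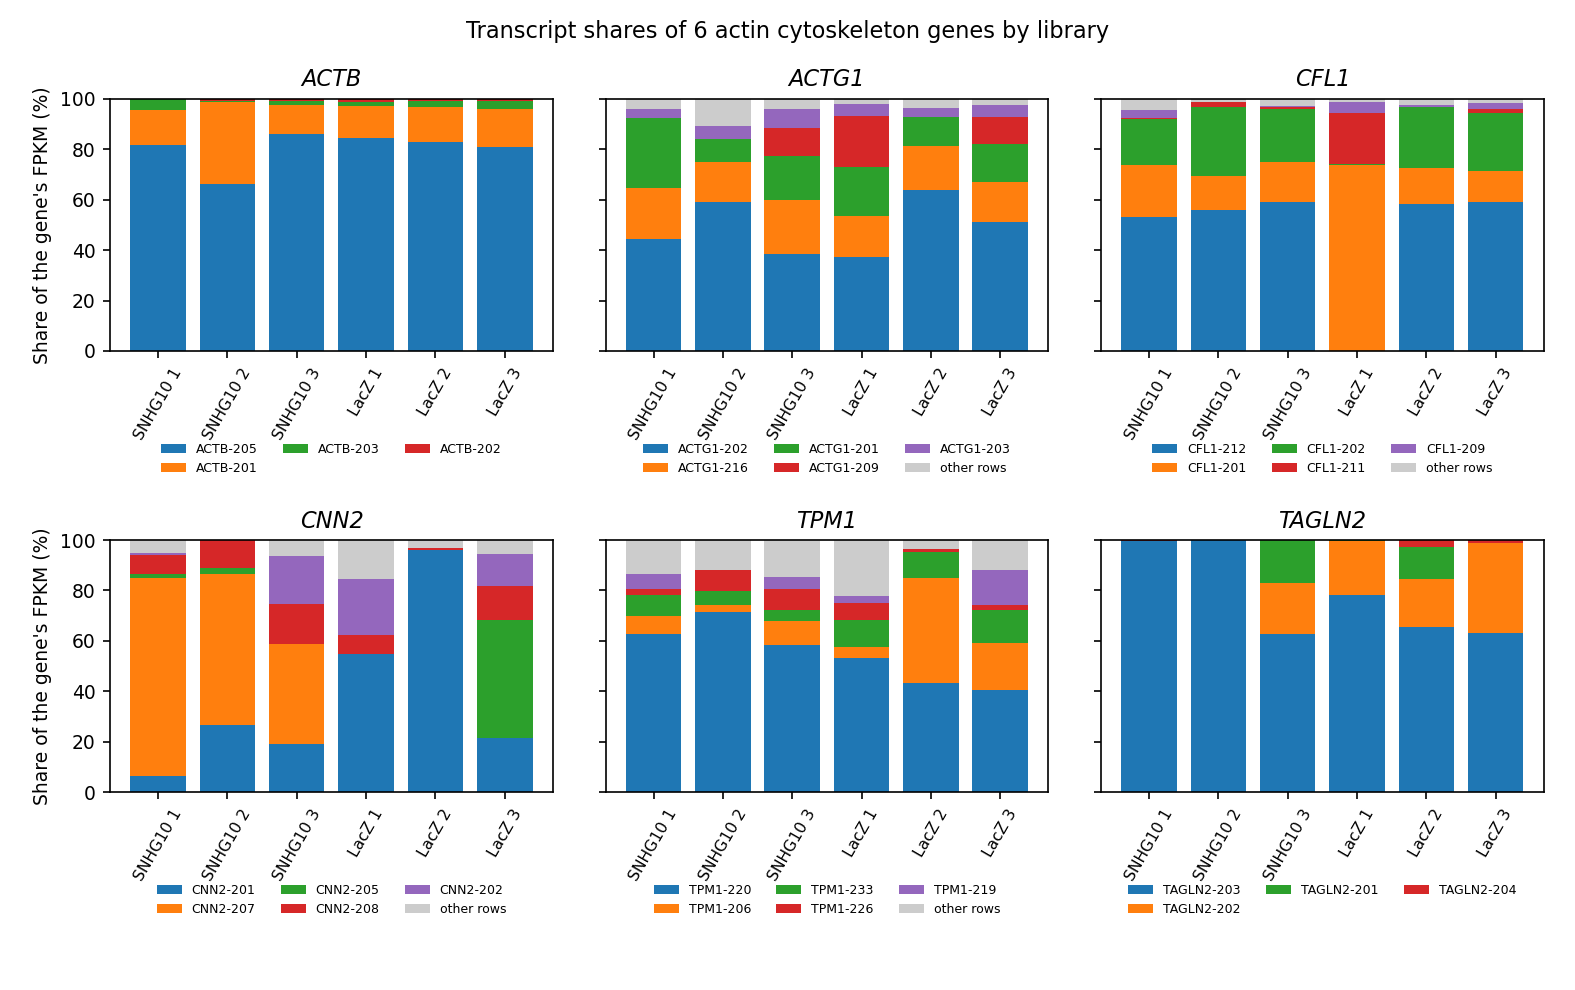
Share of the gene's FPKM (%) held by each transcript row in each library for 6 of the genes, with up to 5 rows in colour and the rest in grey. CFL1-212 is missing from LacZ replicate 1, where CFL1-201 takes 74.0%, and CNN2-207 is in the SNHG10 libraries only.

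The spread between libraries was read from sums and single rows side by side, as the SD of log2(FPKM + 1) within probe sets, pooled over both. For sums it was 0.53 in ACTB, 0.66 in ACTA2 and 1.05 in TAGLN, and at most 0.22 in the other 7. The median of the 10 was 0.185, beside 0.162 over 340 genes between 100 and 1000 FPKM and 0.311 over 3891 genes between 10 and 100. ACTB lay above 95.3% of genes of its range of level, ACTA2 above 90.2% and TAGLN above 90.1%. Taken alone, the leading row varied more than the sum in 9 of 10 members, ACTB being the exception, beside 61.8% of genes between 10 and 100 FPKM and 62.4% of those between 100 and 1000. Genes with a single row cannot show such a gap. The widest gap was in CFL1, with 3.13 for CFL1-212 against 0.22 for the gene.

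**Figure D4:**
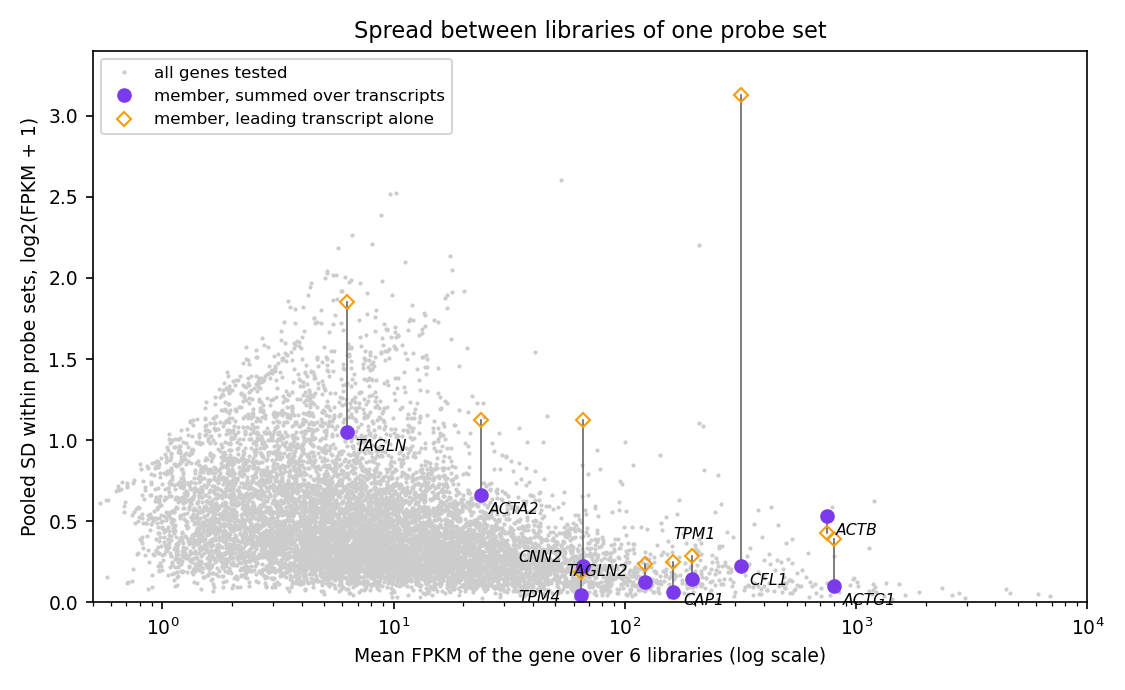
Pooled SD of log2(FPKM + 1) between libraries of one probe set against mean FPKM (log axis) for all genes tested (grey), for the summed members (filled circles) and for each member's leading row alone (open diamonds, joined by a line). Diamonds stand above circles in all members but ACTB, and the CFL1 pair spans 0.22 to 3.13.

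Members did not vary together as a group. Over the 6 libraries, which all pairs share, the 45 pairs of members had Pearson's r from -0.68 to 0.91 on log2(FPKM + 1), with a median of 0.05. The highest was that of TPM4 and CAP1, both lower with SNHG10 probes. Such values over 6 points are descriptions.

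All 10 genes passed the filter of at least 1 FPKM in at least 3 libraries, as did 57 of their 75 rows, and the other 18 rows were not tested. Limma called 0 of 10 members higher and 0 lower at an adjusted p under 0.05, where 0.0% of all 10304 genes were called in either direction. At an unadjusted p under 0.05 it marked 1 member, TAGLN, and 558 genes in all. Positive and negative log2 differences numbered 5 and 5 among the members, with a median of 0.00, against 4458 and 5846 and a median of -0.05 over all genes. The libraries did not overlap in 3 of 10 members (CAP1, CNN2 and TPM4, each lower with SNHG10 probes), against 11.4% of all genes. As the members were selected with this comparison known, nothing is read from that count.

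Among the 57 rows tested, limma called 2 higher, CNN2-207 and CAP1-216, where 0.0481% of 16618 rows were called higher, and 0 lower, where 0.0421% were. Both rows are listed at 0 in the LacZ libraries, so no fold is given. They passed the filter through the SNHG10 libraries alone and were known when the members were selected, so nothing is read from these calls. At an unadjusted p under 0.05, 6 member rows and 940 rows in all were marked. With any 1 library left out, or with a replicate block, neither row was called. Over all member rows, 37 were listed at 0 in at least 1 library and 38 were above 0 in all 6, or 50.7% against 38.6% of all rows. Of the rows, 11 averaged under 1 FPKM, and none of these passed 4.80 FPKM in any library.

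The other genes of the actin pathway showed no called change either. Of 82 listed, 77 had rows and were tested, and limma called 0 higher and 0 lower, with 1 at an unadjusted p under 0.05. Log2 differences were positive in 33 and negative in 44, with a median of -0.05, close to that of all genes, and 7 of 77 did not overlap between probe sets, a share near the 11.4% of all genes. ACTA1, ACTC1, ACTG2, CNN1 and TAGLN3 had no row and were not analysed here.

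Monomer-binding proteins were the most abundant of these. TMSB10, a thymosin that sequesters monomers, read 1251, 1448 and 1492 FPKM against 1390, 1206 and 1266, and PFN1, the profilin that feeds monomers to growing ends, read 786, 817 and 877 against 691, 1021 and 601. Both overlapped between probe sets. In the Arp2/3 complex, which starts branched filaments, ARPC3 read 152, 125 and 116 against 142, 143 and 142 and ARPC1A stayed between 112 and 128 FPKM. Among nucleation and elongation factors CTTN ranged from 35.9 to 70.7 and WASF2 from 38.6 to 53.4 FPKM, and in the other tropomyosins and the calponin family TPM2 ranged from 68.0 to 90.3, TPM3 from 20.8 to 59.1, CNN3 from 59.3 to 75.03 and CALD1 from 0.614 to 6.49, all overlapping.

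Summed levels did not overlap between the probe sets in 2 of these roles, the Arp2/3 complex, with 527 to 536 FPKM against 548 to 554, and the filament crosslinkers. The 13 crosslinkers summed to 1599 to 1712 FPKM in the SNHG10 libraries and 1801 to 1858 in the LacZ libraries. Gene by gene, 1 of 9 in the Arp2/3 complex and 2 of 13 crosslinkers did not overlap, against 11.4% of all genes. No such share was taken for sums, so nothing is read from them. FLNA, a filamin that crosslinks filaments, read 425, 266 and 452 against 463, 480 and 428, lowest in SNHG10 replicate 2. Non-muscle myosin MYH9 read 243, 250.7 and 250.4 against 257, 257 and 261 FPKM, without overlap, and MYL6 ranged from 135 to 209, with overlap. The adhesion links MSN and PXN did not overlap, at 128 to 136 against 141 to 155 FPKM and at 103 to 116 against 118 to 125. MYH9, MSN and PXN are among the 7 of 77 pathway genes counted above, a share near that of all genes. Of the regulators RHOA ranged from 152 to 189 and CDC42 from 63.8 to 143 FPKM, with overlap.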

How the data were processed

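Each deposited file lists FPKM, 1 value for every transcript, as its header states (per the file headers). The submitters' processing notes name Bowtie2 2.1.0 and hg19, and the program that estimated FPKM is not given in the sources used here. Per the labels' protocols total RNA was taken with Trizol and no pull-down is described, while the series text says that retrieved RNA was sequenced, so the RNA fraction is unclear. FPKM were summed per gene symbol. Genes and rows that reached 1 FPKM in 3 or more libraries were fitted with limma 3.58.1 in R 4.3.3 (eBayes with trend) on log2(FPKM + 1), which understates changes of low genes, and p-values were Benjamini-Hochberg adjusted over all 10304 genes or 16618 rows. These p-values reflect library spread alone, whose source may be technical. The members and lists were chosen with earlier results of these data known. Alternatives were other pseudocounts, filters and scalings, no trend, a replicate block and each library left out. All members and the 2 most abundant other genes of each role are named, with the 3 genes most like the most variable member. RPS19 and overlapping neighbours were named after their values were seen. Rows averaging at least 1 FPKM were to be given in full, and some are given by their range instead. 1 gene that the naming rule picks is not reported here. SNHG10 was not analysed here.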

Additional observations from a re-analysis of the deposited data

How the results depend on the processing

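Of 323 alternative values, 273 stayed on their side of the threshold, within the replicate spread or, for counts and SDs, close in ratio to the main value. Of the rest, 32 moved, 18 lost a call and none turned the direction of a called value. Among the values with no call, 14 changed sign, 13 of them with a library left out: 6 log2 differences, 7 leading-row shares (ACTB, ACTG1, TPM4, CAP1 and CFL1) and the members' share of the total. Without 1 library, 0 to 1 genes were higher (1 without LacZ replicate 2) and 0 to 1 lower (1 without SNHG10 replicate 1), none a member, and all other settings gave 0. Rows called higher and lower, 8 and 7, became 3 and 2 with a pseudocount of 0.1 or of 5, 3 and 3 with no filter or with a filter at 5 FPKM, and 26 and 27 in limma without trend. With a replicate block they became 0 and 0, and over the leave-one-out fits both ranged from 0 to 0, with 915 to 992 rows at an unadjusted p under 0.05. The cause was not tested. CNN2-207 was called in 7 of 14 alternatives (limma adjusted p from 0.0154 to 0.545) and CAP1-216 in 3 of 14 (0.0206 to 0.659). The number of members whose leading share did not overlap, 1, ranged from 1 to 3 with a library left out. With fewer libraries this number can only stay or rise, and no share over all genes was taken for it, so nothing is read from the rise. Of 139 alternative log2 differences of members 6 changed sign, in ACTB, ACTG1, CFL1 and TPM1, none of them called. The labels give same-numbered libraries a shared number and do not say whether they are pairs. Their deviations correlated very weakly, at 0.012 to 0.016, each best with its own number, and no pairing is read from these values. The unknown depth limits what the values at 0 can show.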
